A study of Mus musculus with 9 samples.

Results

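A set of 8 genes of the cytotoxic granule and of contact killing was followed in monocyte preparations from mouse blood: the granzymes Gzma, Gzmb and Gzmm, perforin (Prf1), the granule membrane protein gene Nkg7, cathepsin W (Ctsw), Fas ligand (Fasl) and the chymase Cma1. They were taken by name, as 8 of 19938 genes measured, and each was read from a transcript cluster (a probe set for 1 gene) that carries its symbol alone. The preparations came from adult Balb/c mice with no tumor: Ccr2-/- mice, which lack the receptor CCR2, Ccl2-/- mice, which lack its ligand CCL2, and wild type mice, with 3 arrays per genotype and the cells of 5 mice pooled on each array. Monocytes were enriched with magnetic beads, first by removing cells that bound antibodies to CCR3, MHC II, Ly-6G, B220, CD8 or CD4 and then by keeping cells with CD11b. The methods define monocytes as lacking NK1.1 too, but the antibodies listed for this depletion include none to an NK cell receptor. Both deletions are germline deletions, so every cell of the mouse lacked the gene, and the labels add no other allele or treatment. RNA was hybridized to Affymetrix Mouse Gene 1.0 ST arrays.

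Cytotoxic lymphocytes, which are natural killer (NK) cells and cytotoxic T cells, store perforin and granzymes in modified lysosomes and release them onto a target cell. Perforin opens the target membrane, the granzymes are serine proteases that enter and cleave proteins inside, and Fas ligand kills separately, by binding the receptor Fas on the target. Monocytes are not the usual source of these transcripts. Transcript and protein need not go together for these genes, since resting mouse NK cells hold much perforin and granzyme B mRNA but little of the proteins. Mouse NK cells can also bear CD11b.

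In Ccr2-/- preparations 7 of the 8 genes were higher than in wild type preparations, by 1.28-fold to 2.30-fold, and Gzmm was not called. In Ccl2-/- preparations all 8 group means lay between those of Ccr2-/- and wild type, and none of the 8 passed the test against either. A gene was called at an adjusted p under 0.05 from limma, fitted on all 9 arrays and adjusted over 19938 genes. The same test called 4.91% of all genes higher and 8.38% lower in Ccr2-/- against wild type. Because RNA was taken from a mixed preparation, a change in the number of cells of a type and a change in RNA per cell cannot be told apart.

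The promoters of 5 of the 7 genes called higher in Ccr2-/- than in wild type preparations are shown. Of the rest, Ctsw has no window and that of Gzma is not shown. Each run is the RefSeq window of the GRCm38.p6 build from 250 bases before to 50 bases after a transcript start, written 5′ to 3′ along the gene. That start is the gene's outermost one for Gzmb, Nkg7, Fasl and Cma1, and lies 85 bases inside it for Prf1, and motif positions are counted from it. Capitals mark matches on either strand to TGTGGT (a Runx site, ACCACA on the opposite strand), GGAAGT (an Ets site, ACTTCC on the opposite strand) and AGGTGTGA (a T-box site), core letters of 3 families of transcription factors active in lymphocytes.
Prf1, chr10:61297586-61297885, plus strand: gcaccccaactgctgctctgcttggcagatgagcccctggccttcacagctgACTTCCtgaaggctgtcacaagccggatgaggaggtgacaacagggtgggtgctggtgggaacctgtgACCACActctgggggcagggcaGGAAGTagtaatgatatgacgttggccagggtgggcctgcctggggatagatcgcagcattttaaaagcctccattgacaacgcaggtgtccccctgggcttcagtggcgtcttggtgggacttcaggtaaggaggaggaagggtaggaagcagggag
Gzmb, chr14:56262285-56262584, minus strand: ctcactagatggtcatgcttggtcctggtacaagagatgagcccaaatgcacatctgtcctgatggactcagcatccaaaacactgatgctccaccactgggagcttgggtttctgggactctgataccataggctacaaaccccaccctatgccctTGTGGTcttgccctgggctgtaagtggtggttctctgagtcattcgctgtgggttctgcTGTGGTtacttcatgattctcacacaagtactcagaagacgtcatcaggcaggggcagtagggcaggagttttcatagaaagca
Nkg7, chr7:43436888-43437187, plus strand: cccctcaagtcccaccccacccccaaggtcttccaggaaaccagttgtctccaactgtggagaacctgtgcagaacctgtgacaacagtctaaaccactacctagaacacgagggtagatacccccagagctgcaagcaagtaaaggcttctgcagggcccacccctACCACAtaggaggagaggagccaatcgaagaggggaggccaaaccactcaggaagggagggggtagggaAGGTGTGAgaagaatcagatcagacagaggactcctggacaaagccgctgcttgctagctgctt
Fasl, chr1:161788446-161788745, minus strand: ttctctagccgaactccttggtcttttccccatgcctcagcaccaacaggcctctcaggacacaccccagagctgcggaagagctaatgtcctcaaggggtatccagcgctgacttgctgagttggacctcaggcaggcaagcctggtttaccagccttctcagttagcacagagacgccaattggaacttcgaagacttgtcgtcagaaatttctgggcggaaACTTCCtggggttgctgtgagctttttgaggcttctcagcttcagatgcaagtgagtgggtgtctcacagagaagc
Cma1, chr14:55944626-55944925, minus strand: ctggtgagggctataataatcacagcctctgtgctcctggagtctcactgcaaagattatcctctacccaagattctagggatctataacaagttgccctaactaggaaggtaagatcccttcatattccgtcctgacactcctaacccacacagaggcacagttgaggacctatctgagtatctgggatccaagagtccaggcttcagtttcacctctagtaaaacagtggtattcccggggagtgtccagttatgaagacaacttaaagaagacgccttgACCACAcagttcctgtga

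Windows were at hand for 7 of the 8 genes, with 2 windows for Gzmm and none for Ctsw. The Runx letters stood in 6 of these 8 windows and in 16.8% of 32851 promoter windows of the same length. The Ets letters stood in 2 of the 8 windows (Prf1 and Fasl) and in 23.8% of all windows. The T-box letters stood in 1, that of Nkg7, with the first base at -14 from the start, and in 1.28% of all windows. In Gzmb the Runx letters occurred at -93 and at -34, in Prf1 they lay at -130 between Ets letters at -198 and -108, and in Cma1 they lay after the start, at 32. No matches overlapped each other. The letters were chosen after the windows had been seen, and a match is a description of sequence, not a measured binding site.

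Perforin and granzyme B, the pore former and the granzyme that cleaves after aspartate and activates caspases, gave the smallest adjusted p of the 8 genes. Prf1 read 13.42, 13.45 and 13.40 on the log2 scale of array intensity in Ccr2-/- preparations, 13.22, 13.21 and 12.98 in Ccl2-/- preparations and 12.60, 12.69 and 12.71 in wild type preparations. The 3 genotypes did not overlap. The means were 13.42 ± 0.03 in Ccr2-/- and 12.67 ± 0.06 in wild type (SD, n = 3 each), a 1.69-fold difference (0.76 ± 0.08 log2, SE, limma adjusted p = 0.000834). Gzmb read 13.45, 13.49 and 13.42 in Ccr2-/-, 13.26, 13.07 and 12.93 in Ccl2-/- and 12.64, 12.69 and 12.68 in wild type. Here too the genotypes were apart on every array, and Gzmb was 1.72-fold higher in Ccr2-/- than in wild type (0.79 ± 0.09 log2, SE, limma adjusted p = 0.000884).

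**Figure D1:**
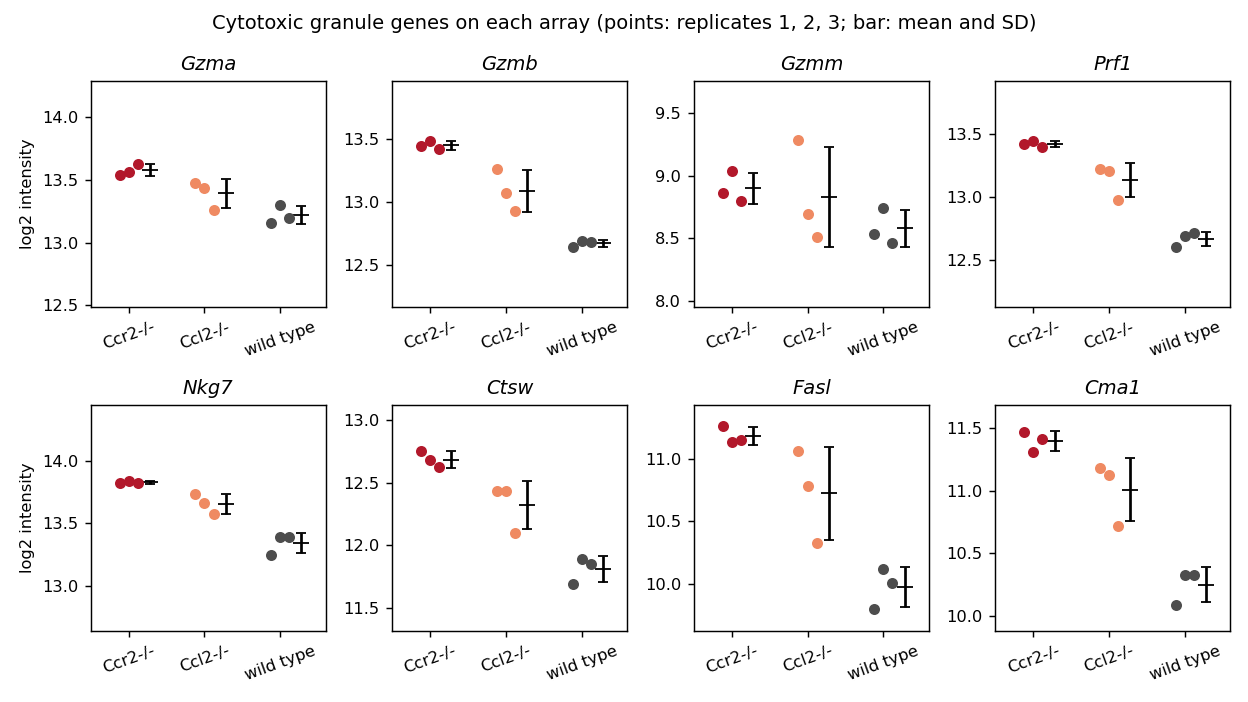
Log2 array intensity of the 8 genes on each of the 9 arrays, 1 panel per gene, with genotypes along the horizontal axis, points for arrays and a bar for the group mean. In 6 of the 8 panels the 3 genotypes do not overlap, and the points of the Ccl2-/- group are the most spread in all 8.

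The other granzymes of the group moved less. Gzma, a tryptase and one of the main proteases of the NK cell granule, read 13.54, 13.56 and 13.63 in Ccr2-/-, 13.48, 13.44 and 13.26 in Ccl2-/- and 13.16, 13.30 and 13.20 in wild type. It was 1.28-fold higher in Ccr2-/- than in wild type (0.36 ± 0.08 log2, SE, limma adjusted p = 0.019), and its Ccl2-/- range reached into the wild type range. The Gzma call was lost without wild type replicate 1 or 3, without any 1 of the Ccr2-/- arrays, after median centring of the arrays and with the replicate number as a block, and over the 7 of 17 alternatives that lost it the adjusted p was 0.0508 to 0.0847. Gzmm, which cleaves after methionine or leucine, read 8.86, 9.04 and 8.80 in Ccr2-/-, 9.28, 8.69 and 8.51 in Ccl2-/- and 8.53, 8.74 and 8.46 in wild type. All 3 Ccr2-/- values were above the wild type values by a small margin, but the fitted difference of 0.32 log2 had a 95% interval of -0.10 to 0.74 (adjusted p = 0.389). Genes of tissues outside the blood, a list of 15 taken as a guide to what this array reads with no transcript, had values of 6.52 to 9.67 with a median of 7.97, and the Gzmm values lie inside that range.

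Nkg7 encodes a membrane protein of the granule that takes part in its release. It read 13.82, 13.84 and 13.82 in Ccr2-/-, 13.73, 13.66 and 13.57 in Ccl2-/- and 13.25, 13.39 and 13.39 in wild type, with no overlap between genotypes. The difference of Ccr2-/- from wild type was 1.40-fold (0.48 ± 0.07 log2, SE, limma adjusted p = 0.00263). The brightest cluster of any gene read 14.31 to 14.37 across the 9 arrays, so Nkg7 and Gzma lay near the top of the scale of these arrays, and whether this compresses their fold changes was not tested. Ctsw, a papain-like cysteine protease made by NK cells and cytotoxic T cells, read 12.75, 12.68 and 12.62 in Ccr2-/-, 12.43, 12.43 and 12.10 in Ccl2-/- and 11.69, 11.89 and 11.85 in wild type. Its genotypes were also fully apart, and it was 1.83-fold higher in Ccr2-/- than in wild type (0.87 ± 0.11 log2, SE, limma adjusted p = 0.00124).

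Fasl and Cma1 had the highest fold changes of the 8. Fasl read 11.26, 11.13 and 11.15 in Ccr2-/-, 11.06, 10.78 and 10.33 in Ccl2-/- and 9.80, 10.12 and 10.01 in wild type. Every Ccl2-/- array lay between the others, spread over most of the gap. Fasl was 2.30-fold higher in Ccr2-/- than in wild type (SE of 0.17 on the log2 scale, limma adjusted p = 0.0023). Cma1, a serine protease best known from mast cells, read 11.47, 11.31 and 11.41 in Ccr2-/-, 11.18, 11.12 and 10.72 in Ccl2-/- and 10.09, 10.33 and 10.33 in wild type. The genotypes did not overlap, and the difference of Ccr2-/- from wild type was 2.22-fold (1.15 ± 0.13 log2, SE, limma adjusted p = 0.00101). The calls of Prf1, Gzmb, Nkg7, Ctsw, Fasl and Cma1 held in each of the 17 alternatives tried.

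**Figure D2:**
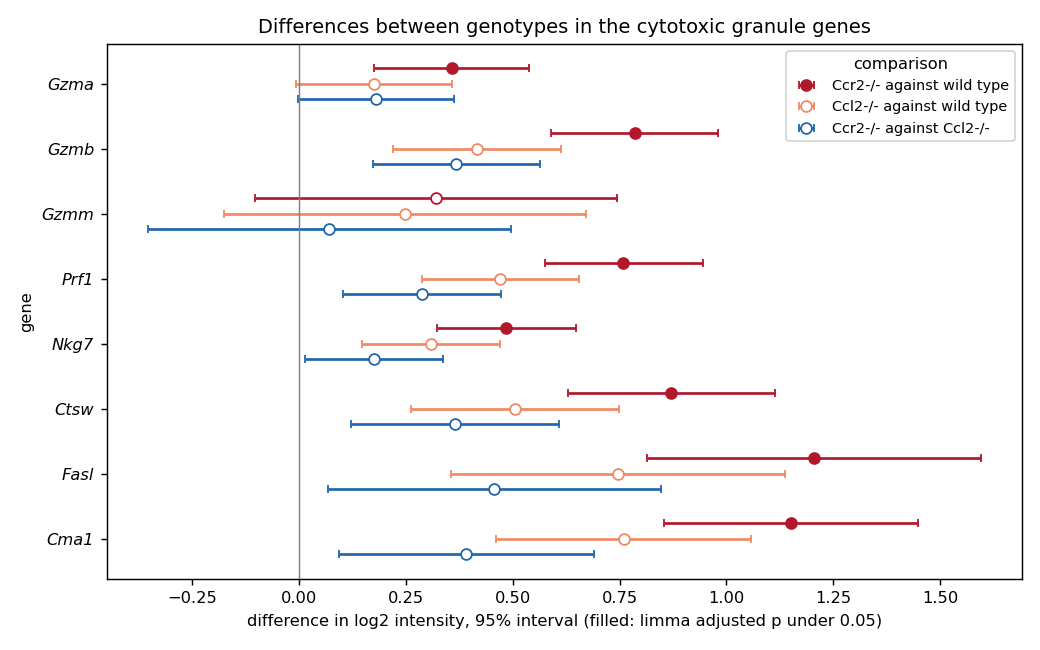
Log2 difference of each of the 8 genes with its 95% interval, for Ccr2-/- against wild type, Ccl2-/- against wild type and Ccr2-/- against Ccl2-/-. In Ccr2-/- against wild type the interval of Gzmm reaches from -0.10 to 0.74 and those of the other 7 lie above 0.

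As a group, the 8 genes had a median difference of 0.77 log2 in Ccr2-/- against wild type, beside 0.01 log2 over all genes. Every Ccr2-/- array was above every wild type array for 8 of 8 genes, and the same held for 15.7% of all genes. The size limits named in the methods, a ratio of group means over 1.2 and a difference over 100 intensity units, were passed by 7 of the 8 in Ccr2-/- against wild type, beside 6.56% of all genes.

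In Ccl2-/- against wild type the 8 differences were all positive, with a median of 0.44 log2 beside 0.08 over all genes, and none was called. Positive differences were common here, with 13698 of 19938 over all genes and 15 of 15 for genes of tissues outside the blood. The fold was 1.69 for Cma1 and 1.39 for Prf1 (limma adjusted p = 0.0689 for each), 1.68 for Fasl (0.118), 1.42 for Ctsw (0.101), 1.33 for Gzmb (0.0954), 1.24 for Nkg7 (0.118), 1.19 for Gzmm (0.535) and 1.13 for Gzma (0.395). The adjusted test called 0.0752% of all genes higher in this comparison. Of the 8, 6 were higher at an unadjusted p under 0.05, beside 6.78% of all genes. The arrays did not overlap for 6 of 8 genes (9.43% of all genes), and 6 of 8 passed the size limits (7.84% of all genes). The missed threshold does not show that Ccl2-/- and wild type are alike. The Ccl2-/- arrays had the largest SD of the 3 genotypes for 8 of 8 genes: Ccl2-/- replicate 3 was the lowest of its group for 8 of 8 and Ccl2-/- replicate 1 the highest for 7 of 8. Without Ccl2-/- replicate 3, 5 of the 8 were called higher than in wild type (Prf1, Gzmb, Ctsw, Fasl and Cma1), and with an intensity trend in the variances, on all 9 arrays, these 5 and Nkg7 were called, 6 in all. With an offset of 50 before log2, 2 were called, Prf1 and Cma1. Over all genes these settings called more too, 260 higher without Ccl2-/- replicate 3, 195 with the trend and 51 with the offset, beside 15 in the main fit.

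Set directly against Ccl2-/-, the Ccr2-/- means were higher for 8 of 8 genes, beside 6483 of 19938 over all genes. The median difference was 0.33 log2 beside -0.08 over all genes, and none of the 8 was called. The lowest adjusted p was that of Gzmb, 1.29-fold (0.37 log2, limma adjusted p = 0.0564), and Fasl had the highest fold, 1.37 (0.46 log2, adjusted p = 0.199). Prf1 differed by 0.29 log2 (0.0995), Ctsw by 0.36 (0.11), Cma1 by 0.39 (0.154), Nkg7 by 0.18 (0.231), Gzma by 0.18 (0.271) and Gzmm by 0.07 (0.861). The adjusted test called 0.732% of all genes higher. At an unadjusted p under 0.05, 6 of the 8 were higher, beside 5.66% of all genes. The arrays did not overlap for 7 of 8 genes (7.58% of all genes), with Gzmm as the exception, and 5 of 8 passed the size limits (3.47% of all genes). With an intensity trend in the variances 4 were called, Gzmb, Prf1, Nkg7 and Ctsw, and with an offset of 50 before log2 Gzmb was called. Without Ccl2-/- replicate 1, Gzmb and Fasl were called, and without Ccl2-/- replicate 3 a single gene passed the size limits and the Gzmm difference turned to -0.09 log2. Over all genes, 343 were called higher with the trend, 200 with the offset and 364 without Ccl2-/- replicate 1, beside 146 in the main fit. The wild type arrays are shared by both comparisons with wild type.

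Gzmb and Cma1 lie at opposite ends of 1 protease cluster on chromosome 14, with 15 protein-coding genes from Cma1 to Gzmb in the RefSeq gene order. A cluster of 1 gene measured 13 of them, and the 2 called higher in Ccr2-/- against wild type were the end genes, Cma1 and Gzmb. Between them, the mast cell proteases Mcpt1 (0.01 log2), Mcpt2 (-0.09) and Mcpt4 (0.23), the basophil protease Mcpt8 (-0.16), the neutrophil protease Ctsg (0.37) and the granzymes Gzmc, Gzmd, Gzme, Gzmf, Gzmg and Gzmn (-0.63 to 0.26) were not called, with adjusted p of 0.198 or more. Group means of the genes between the ends ran from 5.71 (Mcpt2 in Ccr2-/-) to 9.57 (Mcpt8 in wild type). They lay inside or below the 6.52 to 9.67 read for genes of tissues outside the blood. A missing call there does not show that an expressed gene stayed level. Several of these genes are close copies of each other, so their probe sets may share signal. Cma2 and Mcpt9 share a probe set with other genes and were not read.

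**Figure D3:**
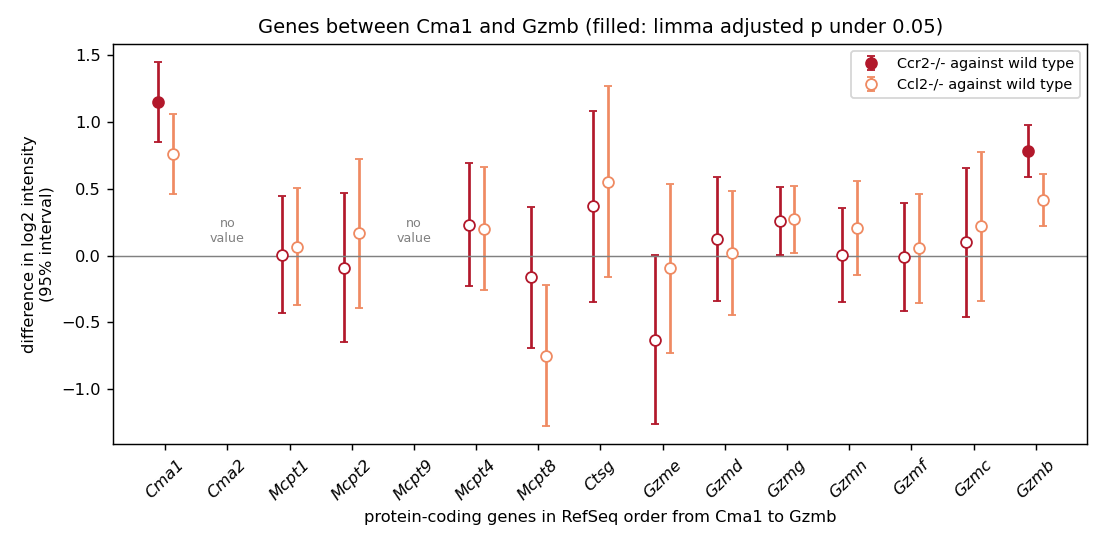
Log2 difference with its 95% interval for each measured protein-coding gene from Cma1 to Gzmb, in RefSeq order, in Ccr2-/- against wild type and in Ccl2-/- against wild type. The 2 end genes stand at 1.15 and 0.79 log2 in Ccr2-/- against wild type, and every interval between them except that of Gzmg reaches 0 or below. The interval of Mcpt8 in Ccl2-/- against wild type lies wholly below 0 (-1.28 to -0.22, limma adjusted p = 0.225). The group means of the genes between Cma1 and Gzmb lay inside or below the range read for genes of tissues outside the blood.

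Among 7 other granzymes, Gzmk, a tryptase of T cells and NK cells, was the 1 called, 1.56-fold higher in Ccr2-/- than in wild type (limma adjusted p = 0.0495). That call was lost in 7 of 17 alternatives (adjusted p of 0.0736 to 0.172), which leave out in turn each wild type array, each Ccr2-/- array and Ccl2-/- replicate 2. The granzymes not called here are those between Cma1 and Gzmb, whose levels are given above. Of 4 measured serpins that block granule proteases or are close relatives of those that do, 3 rose in Ccr2-/- against wild type. These were Serpinb9, the inhibitor of granzyme B that protects the killer cell itself (1.90-fold, adjusted p = 0.0019), Serpinb9b (2.34-fold, 0.000697) and Serpinb6b (2.07-fold, 0.00213), while Serpinb6a stood at 1.13-fold (0.63). In Ccl2-/- against wild type Serpinb9b was the 1 called (1.90-fold, adjusted p = 0.0334), and it lost that call in 9 of 17 alternatives, among them without any 1 wild type array, any 1 Ccr2-/- array or Ccl2-/- replicate 2 (adjusted p of 0.0841 to 0.266).

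Genes for granule processing, storage and release did not move as 1 group. Of 15 measured, 2 rose and 6 fell in Ccr2-/- against wild type, with a median of -0.25 log2. The 2 that rose were Igf2r, the mannose 6-phosphate receptor that sorts granzymes to lysosomes (1.94-fold, limma adjusted p = 0.0012), and Unc13d, which primes granules for fusion (1.32-fold, 0.00709). The falls included the lysosomal protease Ctsl (0.369-fold, 0.000829), the lysosomal membrane protein Lamp1 (0.710-fold, 0.00203), the fusion protein Vamp8 (0.783-fold, 0.00598) and Ctsc (0.768-fold, 0.0107), the dipeptidyl peptidase that activates granzymes. Monocytes and macrophages use these lysosomal genes as well. Ctsc lost its call without Ccr2-/- replicate 2 and after median centring, and Unc13d and Vamp8 lost theirs after that centring (adjusted p of 0.0517 to 0.0818). The other 2 that fell, Lyst and Lamp2, which shape and coat lysosomes, lost their calls in 4 and 10 of 17 alternatives, among them without wild type replicate 1 or 2 and without Ccr2-/- replicate 2 or 3 (0.0533 to 0.179). The proteoglycan Srgn, which packs granule proteins (1.05-fold, 0.636), Rab27a, which docks granules (0.817-fold, 0.0621), and Stx11, a fusion protein (0.899-fold, 0.168), were not called.

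Among 11 measured ligands, receptors and caspases of the death receptor route, together with the interferon gene Ifng, 1 rose and 1 fell in Ccr2-/- against wild type. Ifng, the interferon made by NK cells and T cells, was 1.80-fold higher (limma adjusted p = 0.0015), and Bid, a protein of the death receptor route, was 0.743-fold (0.00298). The receptor Fas stood at 0.969-fold (0.961) and the related ligand Tnfsf10 differed by -0.15 log2 (0.304).

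**Figure D4:**
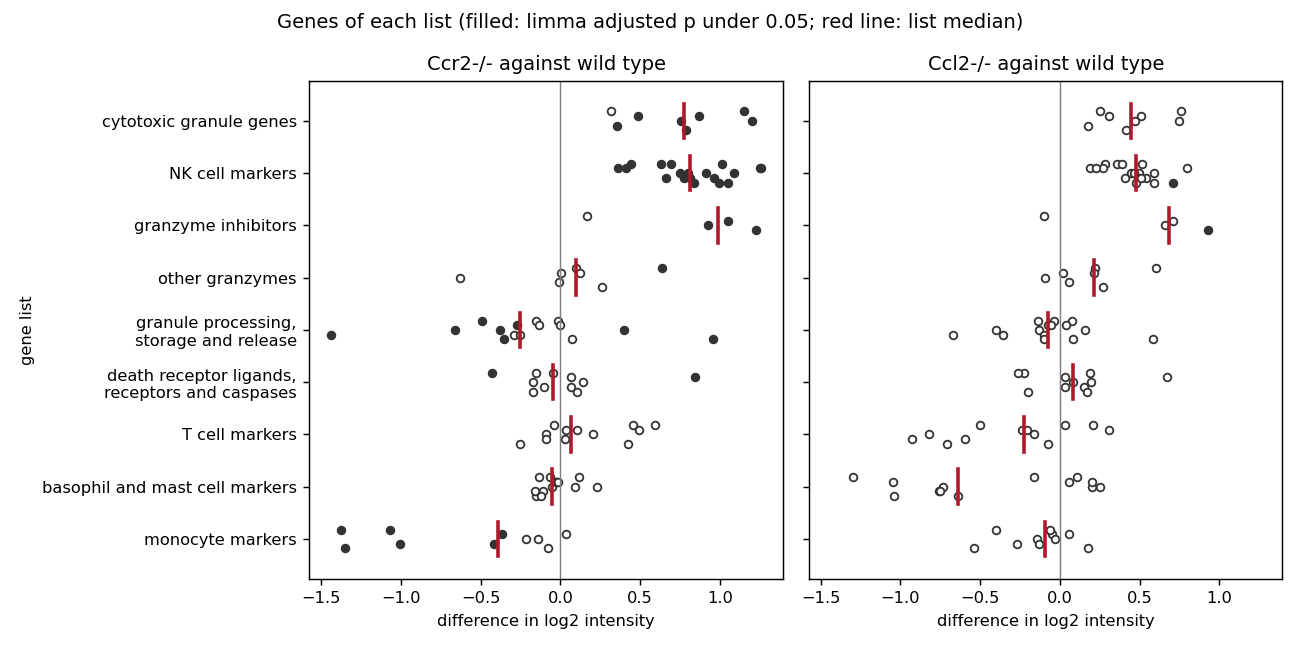
Log2 difference of each measured gene of the lists, with the list median, in Ccr2-/- against wild type and in Ccl2-/- against wild type. The medians of the 8 cytotoxic granule genes and of the NK cell markers lie at 0.77 and 0.82 log2 in Ccr2-/- against wild type, those of the T cell and of the basophil and mast cell markers at 0.07 and -0.05.

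Markers of other blood cells were read beside these results. NK cell markers moved with the granule genes: 19 of 19 measured were called higher in Ccr2-/- against wild type, with a median of 0.82 log2. Their summed intensity was 107592 to 113762 in Ccr2-/-, 77279 to 94728 in Ccl2-/- and 59357 to 65373 in wild type, and the lowest single value was that of Cd160, 217.4 in wild type. In each genotype the means of 2 of the 19, Cd160 and Klra8, lay inside the range read for genes of tissues outside the blood, and those of the other 17 lay above it. Klra3, an inhibitory Ly49 receptor, was 2.02-fold higher in Ccr2-/- than in wild type (limma adjusted p = 0.000547), Klrc1, a partner chain of CD94, 2.00-fold (0.000746), Tbx21, the T-box factor T-bet, 1.89-fold (0.000772), and Ncr1, the receptor NKp46, 1.61-fold (0.000829). In Ccl2-/- against wild type 1 of 19 was called, Klrc1, with a list median of 0.48 log2, and Klrc1 lost that call in 11 of 17 alternatives, among them without any 1 wild type array, any 1 Ccr2-/- array and Ccl2-/- replicate 1 or 2 (adjusted p of 0.0637 to 0.29). Cd160, Cd244a and Sh2d1b1 each lost their call in Ccr2-/- against wild type without wild type replicate 1 or Ccr2-/- replicate 1, among others (0.0534 to 0.208). In Ccr2-/- against Ccl2-/- the NK list median was 0.31 log2. Of its differences 19 of 19 were positive, beside 6483 of 19938 over all genes, and 16 had an unadjusted p under 0.05. Klra8 (limma adjusted p = 0.0154), Klra3 (0.0242) and Tbx21 (0.0406) were the 3 called. They lost that call in 3, 9 and 10 of 17 alternatives. The part of NK cells in the higher granule transcripts was not tested.

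None of 12 T cell markers was called in any of the 3 comparisons. Their median was 0.07 log2 in Ccr2-/- against wild type, where Lat and Thy1 had an unadjusted p under 0.05, and -0.22 in Ccl2-/- against wild type, where 0 did. In Ccr2-/- against Ccl2-/- their median was 0.44 log2, above the 0.33 of the granule genes. Of their differences 12 of 12 were positive, beside 6483 of 19938 over all genes, with Icos alone at an unadjusted p under 0.05. Their mean log2 level was 10.29, 9.77 and 8.86 in Ccr2-/-, 8.85, 9.57 and 9.10 in Ccl2-/- and 9.50, 9.50 and 9.44 in wild type. The part of T cells in the higher granule transcripts was not tested. Basophil and mast cell markers, of interest because of Cma1, were not called in any of the 3 comparisons (0 of 13). Their median was -0.05 log2 in Ccr2-/- against wild type, with 0 at an unadjusted p under 0.05, and -0.64 in Ccl2-/- against wild type, with 7. In Ccr2-/- against Ccl2-/- it was 0.49 log2, with 10 of 13 differences positive and 5 at an unadjusted p under 0.05 (Cd200r3, Cpa3, Gata2, Mcpt8 and Ms4a2). Their summed intensity was 5267 to 8311 in Ccr2-/-, 4282 to 5058 in Ccl2-/- and 5446 to 9293 in wild type. Cpa3, a mast cell and basophil protease, was 0.982-fold in Ccr2-/- (adjusted p = 0.988) and 0.485-fold in Ccl2-/- (0.317) against wild type. Cma1 was higher than wild type on every array of both. Which cells the Cma1 transcripts came from was not tested.

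**Figure D5:**
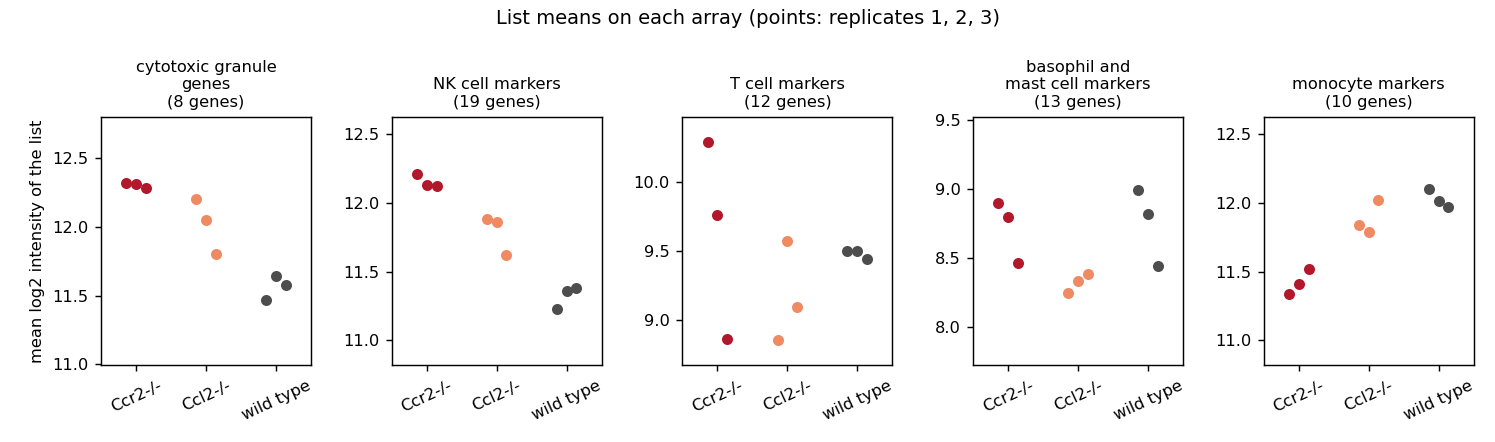
Mean log2 intensity of the 8 cytotoxic granule genes and of marker lists on each of the 9 arrays, with genotypes along the horizontal axis and the same span on every vertical axis. The NK cell means run from 12.12 to 12.21 in Ccr2-/-, 11.62 to 11.88 in Ccl2-/- and 11.23 to 11.38 in wild type, while the T cell means of Ccr2-/- run from 8.86 to 10.29.

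The labelled cell type was present in all preparations. Csf1r, the receptor that monocytes need to survive, averaged 12.79 ± 0.08 log2 in Ccr2-/-, 13.10 ± 0.08 in Ccl2-/- and 13.15 ± 0.02 in wild type (SD, n = 3 each). Of 10 measured monocyte markers 6 fell in Ccr2-/- against wild type, with a list median of -0.39 log2, and their summed intensity was 49155 to 52757 in Ccr2-/-, 58618 to 64100 in Ccl2-/- and 63505 to 65671 in wild type. F13a1, a coagulation factor subunit of monocytes, was 0.392-fold (limma adjusted p = 0.000322), Cd14 0.386-fold (0.00151), Fcgr1 0.477-fold (0.00271) and Emilin2 0.750-fold (0.00709). Csf1r was 0.776-fold (0.00964) and lost its call after median centring (0.0789). The list did not fall as a whole: Itgam (1.03-fold, limma adjusted p = 0.867), Nr4a1 (0.949-fold, 0.703), Lyz2 (0.908-fold, 0.211) and Cx3cr1 (0.860-fold, 0.196) were not called. The targeted receptor gene Ccr2 read 9.41 to 9.47 in Ccr2-/-, 12.61 to 12.93 in Ccl2-/- and 12.99 to 13.26 in wild type. Ccl2 read 9.23 to 9.87 in Ccl2-/- and 8.82 to 9.22 in wild type. Its wild type values lie inside the 6.52 to 9.67 read for genes of tissues outside the blood. Whether its probes lie in the deleted part is also not known, so Ccl2 does not check the Ccl2-/- label. The array medians were 324.1 to 355.1 intensity units apart from Ccl2-/- replicate 1, at 430.8.

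Across the 9 arrays the granule genes followed each other closely. The 21 pairs without Gzmm had a Pearson r of 0.949 to 0.992 and the 7 pairs with Gzmm 0.644 to 0.741, and the deviations from the group means correlated at 0.565 to 0.951 over the 28 pairs. These are descriptions over 9 arrays that share genotypes, pools and array effects. Among 13471 genes with a mean log2 of at least 8, the genes outside the group most like Prf1 were Agpat3 (r = 0.998) and Cpne7 (0.997), those most like Gzmb were Klrc2 (0.996), an activating NK receptor, and Dab2ip (0.994), and those most like Gzma were Ada (0.995), adenosine deaminase, and Gfi1 (0.991), a transcriptional repressor. Nkg7 was most like Klri2, an NK receptor, and Tnfrsf9, the costimulatory receptor 4-1BB (0.996 each), Ctsw most like Itga2, the integrin chain CD49b found on NK cells, and Kcnj8 (0.998 each). Fasl was most like Sla2 (0.996) and Klrb1a (0.995), Cma1 most like Nup210 (0.999) and Klrb1a (0.997), and Gzmm most like Pigg (0.986) and E130308A19Rik (0.981). Such likeness was common, since 443 to 769 genes had an r over 0.9 with each of the 8.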

How the data were processed

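Monocyte preparations from peripheral blood of Ccr2-/-, Ccl2-/- and wild type Balb/c mice were profiled, with 3 arrays per genotype, each a pool of 5 mice. The authors used dChip to make the deposited table of linear intensity, with 35512 transcript clusters; its version, normalization and genome build are not given in the sources used here. No step between arrays was added. Of the clusters, 21789 carry 1 gene symbol, 1621 several and 12102 none, and only the first kind was read. Arrays have no read depth, and their number limits the precision.

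Values below 1 were set to 1 before log2. For the 999 genes with more than 1 cluster, the one of highest mean log2 value was taken. In limma 3.58.1 (R 4.3.3), 3 group means were modelled on all 9 arrays, variances were moderated with eBayes, and p-values were adjusted by Benjamini-Hochberg over 19938 genes for each comparison. Each p measures the spread between pooled arrays, not between mice. The script was tested on simulated data. The size limits of the methods name no values to compare, and arithmetic group means were used.

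The 8 genes, the lists of other genes and the tests were chosen with earlier results of these data known. Named genes were all 8, up to 4 called genes per list by smallest p, every gene behind a count of called genes up to 5, and the 2 genes most like each of the 8. Genes named as not called or by unadjusted p, and Csf1r, Klra8, Ctsc, Lyst, Lamp2, Cd160, Cd244a and Sh2d1b1, were chosen after their values were seen. The fit was repeated with the replicate number as a block, with only the 6 arrays of a comparison, with an intensity trend in eBayes, after median centring or quantile normalization of the arrays, after adding 50 to each value, with genes of mean value over 100 only, with a gene's clusters averaged, and leaving out each array in turn. Protein sequences were not analysed here.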

Additional observations from a re-analysis of the deposited data

How the results depend on the processing

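The count of the 8 genes called higher in Ccr2-/- against wild type stayed within 1.5 times its value under every alternative run, with 6 called with the replicate number as a block. In Ccl2-/- against wild type the count of 0 became 6 with an intensity trend and 2 with an offset of 50, and ranged from 0 to 5 with 1 array left out. In Ccr2-/- against Ccl2-/- the count of 0 became 4 with the trend and 1 with the offset, and ranged from 0 to 2 with 1 array left out. Over all genes, the trend and the offset raised the calls higher from 15 to 195 and 51 in Ccl2-/- against wild type. They raised them from 146 to 343 and 200 in Ccr2-/- against Ccl2-/-. The 5 genes past the size limits in that comparison became 3 with group medians and 1 to 5 with 1 array left out, and the Gzmm difference ranged from -0.086 to 0.30 log2, negative without Ccl2-/- replicate 3. The cause was not tested. Same-numbered arrays deviated together at correlations of -0.18 to 0.56. Arrays of different numbers were not compared, so these values do not decide whether the numbers mark pairs. The main fit did not pair them, and with the number as a block the count called was 0 in both comparisons with Ccl2-/-.

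Centring each array on its median moved the median of all genes in Ccl2-/- against wild type to -0.03 log2, from 0.08 as deposited, and in Ccr2-/- against Ccl2-/- to -0.01 from -0.08. All 8 genes stayed higher in each comparison under centring and quantile normalization. The calls over all genes in Ccr2-/- against Ccl2-/- were 146 higher and 572 lower as deposited, 70 and 61 after centring and 185 and 283 after quantile normalization. In Ccl2-/- against wild type 15 genes were called higher and 17 lower as deposited, against 260 and 216 without Ccl2-/- replicate 3. The alternatives that leave out an array for the size limits, and those for genes outside the 8, were chosen after seeing the data.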

Other observations

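Markers of cells that the depletion was aimed at were read as well. Of 10 measured neutrophil markers, Csf3r, the receptor for granulocyte colony-stimulating factor, which monocytes also express, was the 1 called. It was 0.519-fold in Ccr2-/- against wild type (limma adjusted p = 0.000653) and 0.657-fold in Ccr2-/- against Ccl2-/- (0.016). The call against Ccl2-/- was lost in 5 of 17 alternatives. The summed intensity of the list was 4991 to 5563 in Ccr2-/-, 6161 to 6782 in Ccl2-/- and 6844 to 8723 in wild type. None of 4 measured B cell markers was called in any comparison, and an unadjusted p under 0.05 was reached by Cd79b in Ccr2-/- against wild type, by Cd79a, Cd79b and Ms4a1 in Ccl2-/- against wild type and by Cd79a and Ms4a1 in Ccr2-/- against Ccl2-/-. Their summed intensity was 2116 to 2781 in Ccr2-/-, 1960 to 2107 in Ccl2-/- and 2327 to 3228 in wild type.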
